A study of Saccharomyces cerevisiae with 12 samples.

Results

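The UTP, NOP and RRP genes of budding yeast code for nucleolar and nuclear proteins that make and assemble the ribosome. They were chosen by symbol alone: every probe set whose platform symbol is UTP, NOP or RRP followed by a number, with 1 symbol only and the probe set of highest mean kept for each gene. The rule gave 53 genes (18 UTP, 17 NOP and 18 RRP) of 5449 budding yeast genes measured. Each was read by 1 probe set, none of a kind shared between transcripts, and all 53 symbols matched a gene of assembly R64.

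Ribosomal RNA is transcribed as a long precursor in the nucleolus, where proteins and small nucleolar RNAs fold it, modify it and cut it. The UTP proteins were named for their association with the small nucleolar RNA that guides the early cuts, and most belong to the small-subunit processome. The NOP proteins are nucleolar proteins with various tasks, among them the core of the small nucleolar ribonucleoproteins and steps of large-subunit assembly. The RRP genes were named for defects in ribosomal RNA processing and include subunits of the exosome, which trims RNA from its end. In yeast the genes for these factors form a regulon that is transcribed more in fast-growing than in slow-growing cells and is repressed under stress.

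Gene expression was measured on 12 Affymetrix arrays in 6 groups of 2. The groups carry the labels E62A, E62B and E62C for evolved mutants, SO16 and PGM2 for engineered strains, and REF for the reference. All derive from CEN.PK113-7D, a laboratory strain, and grew in minimal medium with galactose in fermenters at pH 5.0, and RNA was taken from cells in mid exponential phase. As known from the study, the evolved mutants are isolates from prolonged culture on galactose, SO16 lacks GAL80, MIG1 and LAP3, and the PGM2 strain overexpresses PGM2. As labelled, each evolved group is 1 isolate, and what is measured on it may belong to that isolate. Each array holds RNA of a whole culture, so fewer cells with a transcript and less of it per cell cannot be told apart. Whether both arrays of a group stem from separate cultures is not given in the labels, so p-values measure the spread between these arrays alone, which may be technical.

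The deleted genes bore out the label SO16: GAL80 lay at 6.29 and 6.04 on the SO16 arrays, against 11.32 and 11.43 on the REF arrays. PGM2 went against its label, at 10.49 and 10.87 on the arrays labelled PGM2, against 12.14 and 12.11 on the REF arrays, and it was 13.43 and 13.19 on the arrays labelled E62C. Groups are therefore called arrays labelled with a name, and each direction given for E62C and PGM2 carries this conflict. The labels E62C and PGM2 may have been exchanged, which was not tested, so whether the arrays labelled E62C hold an evolved isolate is not settled here. The second arrays labelled E62C and SO16 stood apart. Their ribosomal RNA probe sets averaged 11.7, against 9.59 on the other 10 arrays, and their hybridisation controls 8.86, against 10.6. For the UTP, NOP and RRP genes together, the counts of calls, directions and medians for E62C and SO16 are also given without both arrays. Those of single families, of complexes and of other gene lists are given only with all arrays in the fit. The part that the difference of both arrays from the others plays in the results was not tested.

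Levels are log2 intensities after robust multi-array averaging, and all 53 genes lay above the background level of 6.002 that fission yeast probe sets set, with means from 8.08 to 12.3. Differences are log2 differences ± the standard error of the limma fit, and "rose" or "fell" marks an adjusted p under 0.05 (Benjamini-Hochberg over all 5449 genes). Levels of different genes are not set against each other, since probe sets differ in how strongly they bind.

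The 53 genes moved little between the 6 groups. The highest and the lowest group mean of a gene were a median of 0.24 apart, against 0.26 over all genes tested. By family this median was 0.25 for the UTP, 0.30 for the NOP and 0.21 for the RRP genes, so that of the NOP genes was above 0.26. The widest spread among the 53 was 0.49, that of UTP11, while 15.8% of all genes spread over more than 0.5. The moderated F test of limma over the 6 groups called 5 of the 53, or 9.43%, against 27.2% of all genes. These 5 were UTP11 (adjusted p = 0.00419), NOP6 (0.00796), NOP16 (0.0274), UTP5 (0.0342) and NOP15 (0.0366). In the histogram of these spreads the 53 genes fill the low bins and are missing from the long tail on the right.

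**Figure D1:**
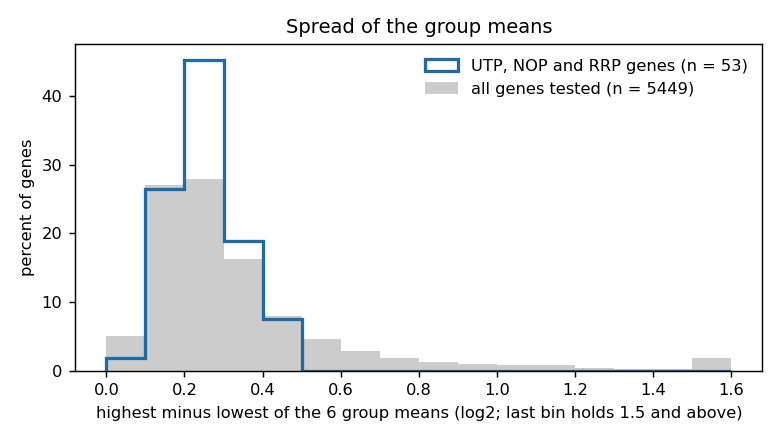
Histogram of the highest minus the lowest of the 6 group means per gene (log2 units, x axis) as percent of genes (y axis), for the 53 UTP, NOP and RRP genes (blue line) and all 5449 genes tested (grey). None of the 53 exceeds 0.5, against 15.8% of all genes.

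With all 12 arrays in the fit, 7 of the 8 rises over REF were on the arrays labelled E62C. There 7 of 53 genes rose (13.2%) and none fell, against a background of 4.84% of all genes higher and 4.96% lower. On the arrays labelled E62A 1 gene rose and none fell, against 5.56% and 6.97% of all genes. On the arrays labelled E62B, SO16 and PGM2 limma called none of the 53. The background was 0% for E62B, 3.69% higher and 5.1% lower for SO16, and 7.03% higher and 6.53% lower for PGM2. For the 53 genes at an unadjusted p under 0.05 the counts were 10 for E62A, 1 for E62B, 25 for E62C, 9 for SO16 and 6 for PGM2. These were 18.9%, 1.89%, 47.2%, 17.0% and 11.3% of the 53, against 25.2%, 1.78%, 24.6%, 20.8% and 24.9% of all genes. The order of E62A and E62C depended on the fit. Array weights gave 6 calls for E62A and 3 for E62C (22.5% and 7.38% of all genes). A fit of only the 2 groups compared gave 6 and 1 (20.4% and 5.80%). The 1 call for E62C there was NOP13 (limma, adjusted p = 0.0265), which the main fit did not call. None of the 7 E62C calls of the main fit was kept in that fit.

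The count of 7 for the arrays labelled E62C rests on the first REF array: without it none of the 53 was called, and 250 of all 5449 genes were. The count was 3 without either E62A array (7.34% of all genes called), 4 without either E62B array (7.34%), 5 without E62C-1 (10.1%) and 3 without E62C-2 (7.93%). It was 6 without either PGM2 array (8.66%), 5 without REF-2 (6.77%) and 10 without either SO16 array (13.4%). Without the arrays E62C-2 and SO16-2 it was 8 genes for E62C, or 15.1%, against 13.7% of all genes. Of the 7 calls, 5 were among these 8, and those of UTP6 and NOP8 were lost. The same alternative gave 6 genes for E62A, all higher, 1 lower gene for SO16, and 2 higher and 1 lower for PGM2, against 22.9%, 16.5% and 22.2% of all genes called. Because the 5 comparisons share the REF arrays, their values stand side by side and are not independent of each other.

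The directions of the differences were also counted, with no test. On the arrays labelled E62A, 45 of the 53 genes had a mean above REF, against 50.8% of all genes. Both arrays lay above both REF arrays for 30 of them (30.9% of all genes) and below for 3 (30.6%). For E62B, 28 genes were above REF (59.5% of all genes), with 4 clear above (17.3%) and 4 clear below (13.2%). For E62C, 50 genes were above REF (57.7%), with 32 clear above (29.1%) and 1 clear below (19.7%). For SO16, 40 genes were above REF (48.7%), with 17 clear above (19.4%) and 4 clear below (21.3%). For PGM2, 35 genes were above REF (52.3%), with 17 clear above (29.8%) and 3 clear below (25.8%). Means above REF were thus most frequent for E62C and E62A, and close to an even split for E62B. Without E62C-2 and SO16-2, 44 genes were above REF for E62C (55.0% of all genes), with 36 clear above (42.5%) and 5 clear below (33.7%). For SO16 it was then 28 genes (37.0%), with 20 clear above (25.9%) and 16 clear below (51.6%), close to an even split.

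**Figure D2:**
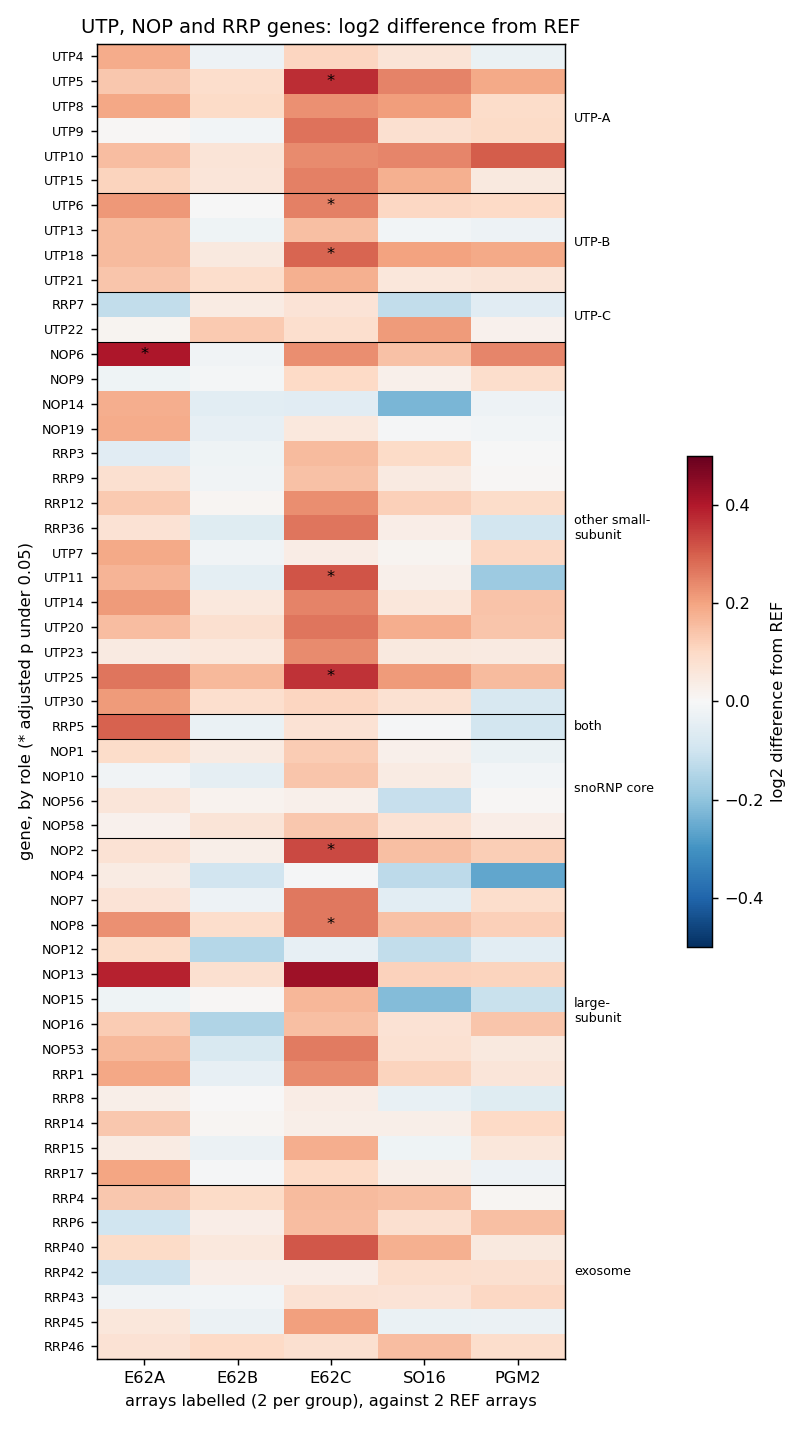
Heat map of the log2 difference from REF (colour, red higher and blue lower) for the 53 genes (rows, by role) on the arrays labelled E62A, E62B, E62C, SO16 and PGM2 (columns, 2 arrays per group). Stars mark the 8 differences with an adjusted p under 0.05, 7 of them in the E62C column and 1, NOP6, in the E62A column.

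The 3 families were also followed by the mean of their members on each array. The 18 UTP genes averaged 9.54 and 9.60 on the E62A arrays, 9.43 and 9.50 on the E62B arrays, 9.61 and 9.67 on the E62C arrays, 9.50 and 9.58 on the SO16 arrays and 9.55 and 9.44 on the PGM2 arrays, against 9.38 and 9.45 on the REF arrays. The arrays labelled E62A, E62C and SO16 thus lay above both REF arrays, while E62B and PGM2 overlapped REF. Which groups were clear of REF depended on the scaling. Relative to the median of all genes on each array, both PGM2 arrays (0.1674 and 0.0873) also lay above both REF arrays (0.0538 and 0.0739). All 18 UTP genes had a mean above REF on the arrays labelled E62A and on those labelled E62C, where 50.8% and 57.7% of all genes did. For 15 of the 18 on E62A arrays and 13 on E62C arrays, both arrays lay above both REF arrays. Over all genes this held for 30.9% and 29.1%.

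The 17 NOP genes averaged 10.21 and 10.22 on the E62A arrays, 10.05 and 10.10 on the E62B arrays, 10.24 and 10.25 on the E62C arrays, 10.05 and 10.14 on the SO16 arrays and 10.19 and 10.06 on the PGM2 arrays, against 10.12 and 10.07 on the REF arrays. Only the arrays labelled E62A and E62C lay above both REF arrays. Of the 17 genes 14 had a mean above REF in each of these groups. Clear above REF were 8 for E62A (30.9% of all genes) and 10 for E62C (29.1%), and clear below 0 and 1 (30.6% and 19.7%). The 18 RRP genes averaged 9.53 and 9.55 on the E62A arrays, 9.45 and 9.51 on the E62B arrays, 9.56 and 9.68 on the E62C arrays, 9.47 and 9.59 on the SO16 arrays and 9.53 and 9.47 on the PGM2 arrays, against 9.46 and 9.49 on the REF arrays. The E62A and E62C arrays again lay above REF. For E62A 13 of the 18 RRP genes had a mean above REF, with 7 clear above (30.9% of all genes) and 3 clear below (30.6%). For E62C all 18 did, with 9 clear above (29.1%). Relative to the median of all genes on each array, both SO16 arrays (0.1758 and 0.1827) also lay above both REF arrays (0.1345 and 0.1118). The higher E62C value came from the array with the strong ribosomal RNA signal. Without it the RRP mean lay 0.08 above REF, against 0.14 with it, while the UTP mean lay 0.19 above REF, against 0.22 with it.

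**Figure D3:**
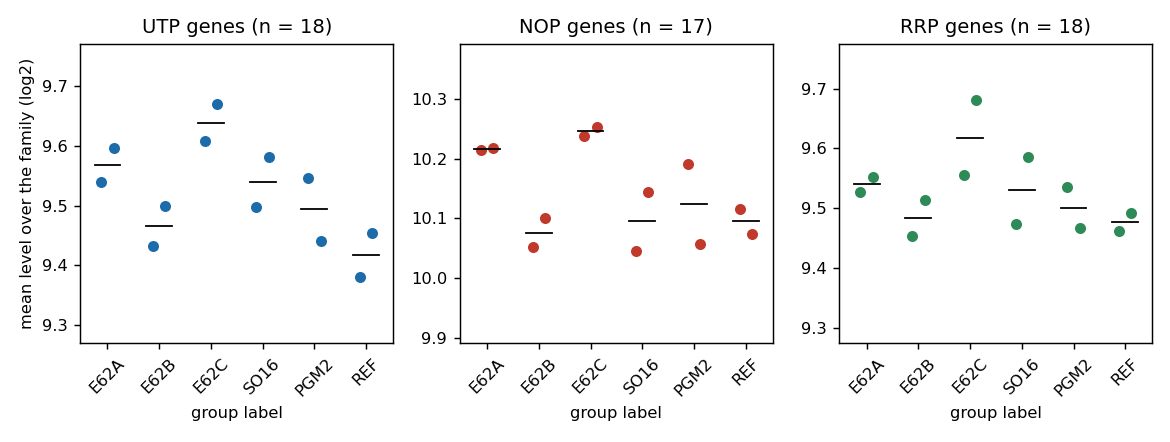
Mean level of each family (log2, y axis) on each of the 12 arrays (points) by group label (x axis), with the group mean as a bar. Both E62A and both E62C arrays lie above both REF arrays in all 3 families, with mean differences of 0.15, 0.12 and 0.06 for E62A and 0.22, 0.15 and 0.14 for E62C in the UTP, NOP and RRP genes.

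The medians of the differences from REF over the 53 genes were 0.13 for E62A, 0.0045 for E62B, 0.16 for E62C, 0.07 for SO16 and 0.05 for PGM2. Over all genes tested they were 0.0035, 0.02, 0.03, -0.0040 and 0.0090. Over the alternatives, the medians of the 53 ran from 0.0901 to 0.1260 for E62A, -0.0172 to 0.0501 for E62B, 0.1250 to 0.2006 for E62C, 0.0120 to 0.1029 for SO16 and -0.0090 to 0.1059 for PGM2. Without E62C-2 and SO16-2 they were 0.1367 for E62C, against 0.0179 over all genes, and 0.0120 for SO16, against -0.0544. The largest of the 6 group means was that of the arrays labelled E62C for 35 of the 53 genes, against 25.6% of all genes, and for none of the 53 was E62C the lowest. REF was the lowest for 20 genes and the highest for none, against 13.2% and 6.7% of all genes. Without the arrays E62C-2 and SO16-2, E62C was the highest for 28 genes, against 24.2% of all genes, and the lowest for 2.

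The UTP-A complex, which binds the nascent precursor first, has 6 members among the 53: UTP4, UTP5, UTP8, UTP9, UTP10 and UTP15. UTP5 lay at 9.61 and 9.70 on the E62A arrays, 9.59 and 9.63 on the E62B arrays, 9.90 and 9.88 on the E62C arrays, 9.69 and 9.84 on the SO16 arrays and 9.75 and 9.67 on the PGM2 arrays, against 9.45 and 9.59 on the REF arrays. The E62C arrays were above all others, and UTP5 rose there by 0.37 ± 0.08 over REF (adjusted p = 0.0106), or 1.29-fold. The call held without either E62C array and ended without the first REF array (adjusted p = 0.114). On the SO16 arrays it differed by 0.25 ± 0.08 (adjusted p = 0.0765), and with each array centred on its median that difference passed the test.

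UTP10, a large scaffold protein, lay at 10.38 and 10.05 on the PGM2 arrays, against 9.87 and 9.95 on the REF arrays. The groups did not overlap, and the difference of 0.30 ± 0.11 did not pass (adjusted p = 0.0915). It passed without E62C-2 and SO16-2. UTP4 differed from REF by between -0.03 (PGM2) and 0.19 (E62A), and its E62C arrays were far apart, at 9.27 and 9.65. None of the 6 UTP-A genes passed besides UTP5, and their median difference was 0.15 for E62A, 0.06 for E62B, 0.25 for E62C, 0.19 for SO16 and 0.09 for PGM2.

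UTP6, UTP13, UTP18 and UTP21 belong to UTP-B, the second complex to join the precursor. UTP18 lay at 9.71 and 9.65 on the E62C arrays, against 9.33 and 9.45 on the REF arrays, and rose by 0.29 ± 0.07 (adjusted p = 0.0309). UTP6 lay at 9.42 and 9.54 on the E62C arrays, against 9.20 and 9.26 on the REF arrays, and rose by 0.25 ± 0.07 (adjusted p = 0.0409). Both E62C arrays were above both REF arrays for either gene. The UTP6 call ended without E62C-2 and SO16-2, with array weights, with cyclic loess and in a fit of only the 2 groups. The UTP18 call ended without E62C-1 (adjusted p = 0.102), E62C-2 (0.0544) or REF-1 (0.235). UTP6 also lay at 9.40 and 9.50 on the E62A arrays, a difference of 0.22 that did not pass (adjusted p = 0.0636) and that passed when E62C-2 and SO16-2 were left out.

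UTP22 and RRP7 belong to UTP-C, and neither passed against REF. UTP22 lay at 9.85 and 9.81 on the SO16 arrays, against 9.54 and 9.69 on the REF arrays, without overlap, and differed by 0.21 ± 0.07 (adjusted p = 0.115). RRP7 lay at 9.46 and 9.52 on the E62A arrays, against 9.54 and 9.69 on the REF arrays, a difference of -0.12 ± 0.09 (adjusted p = 0.452). The partners thus lay on opposite sides of REF on the SO16 arrays, where RRP7 differed by -0.12 ± 0.09 (adjusted p = 0.509). The difference between them was not tested.

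Of the other 15 small-subunit factors, UTP11, UTP25 and NOP6 passed against REF. UTP11, a processome protein, lay at 8.86 and 8.88 on the E62A arrays, 8.60 and 8.71 on the E62B arrays, 8.99 and 9.05 on the E62C arrays, 8.65 and 8.81 on the SO16 arrays and 8.55 and 8.50 on the PGM2 arrays, against 8.66 and 8.74 on the REF arrays. The E62C arrays were the highest and the PGM2 arrays the lowest, with no overlap between these groups or with REF. UTP11 rose by 0.31 ± 0.07 on the E62C arrays over REF (adjusted p = 0.0193) and differed by -0.18 ± 0.07 on the PGM2 arrays (adjusted p = 0.148), a difference that passed with each array centred on its median. The E62C call ended without REF-1 (adjusted p = 0.151) or E62C-2 (0.0884).

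Set directly against the arrays labelled PGM2, UTP11 was higher by 0.49 ± 0.07 on the E62C arrays (adjusted p = 0.00155) and by 0.35 ± 0.07 on the E62A arrays (adjusted p = 0.00534). These comparisons use no REF array, and both held without any 1 array of the compared groups, with a highest adjusted p of 0.0178 for E62C and 0.0483 for E62A. The first is 1.41-fold, the largest difference among the 583 tested for the 53 genes in 11 comparisons.

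UTP25, another processome protein, lay at 8.94 and 8.999 on the E62C arrays, against 8.54 and 8.69 on the REF arrays, and rose by 0.36 ± 0.09 (adjusted p = 0.0276). It was above both REF arrays on every array of the 5 other groups. The call ended without E62C-1 (adjusted p = 0.0535), E62C-2 (0.108) or REF-1 (0.222).

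NOP6, an RNA-binding protein of small-subunit assembly, lay at 10.08 and 9.97 on the E62A arrays, 9.59 and 9.62 on the E62B arrays, 9.92 and 9.79 on the E62C arrays, 9.82 and 9.72 on the SO16 arrays and 9.91 and 9.83 on the PGM2 arrays, against 9.67 and 9.58 on the REF arrays. It rose by 0.40 ± 0.07, or 1.32-fold, on the E62A arrays (adjusted p = 0.00458), and this was the only call of the 53 for E62A. The call ended without E62A-1 (adjusted p = 0.0678). On the PGM2 and E62C arrays NOP6 differed from REF by 0.24 ± 0.07 (adjusted p = 0.0533) and 0.23 ± 0.07 (0.0785), and both differences passed without E62C-2 and SO16-2.

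NOP14, a processome protein, separated E62A from SO16 instead. It lay at 9.39 and 9.37 on the E62A arrays and at 8.95 and 8.99 on the SO16 arrays, with REF between them at 9.20 on both arrays. E62A was higher than SO16 by 0.41 ± 0.08 (adjusted p = 0.00592), and the call ended without E62A-1 (adjusted p = 0.0526). RRP9, which is specific to the ribonucleoprotein that guides the early cuts, differed from REF by between -0.02 (E62B) and 0.15 (E62C), and none of its differences passed. UTP20 had one of the 3 widest gaps between arrays of a group, 9.74 and 10.14 on the SO16 arrays, and none of its differences passed.

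On the arrays labelled E62B the 3 largest differences from REF among the 53 genes were 0.16 ± 0.09 for UTP25, -0.15 ± 0.07 for NOP16 and -0.14 ± 0.08 for NOP12, an RNA-binding protein of the nucleolus, each with an adjusted p of 0.9995. On the arrays labelled SO16 they were 0.25 ± 0.08 for UTP5, 0.25 ± 0.11 for UTP10 (adjusted p = 0.216) and -0.23 ± 0.08 for NOP14 (adjusted p = 0.138).

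**Figure D4:**
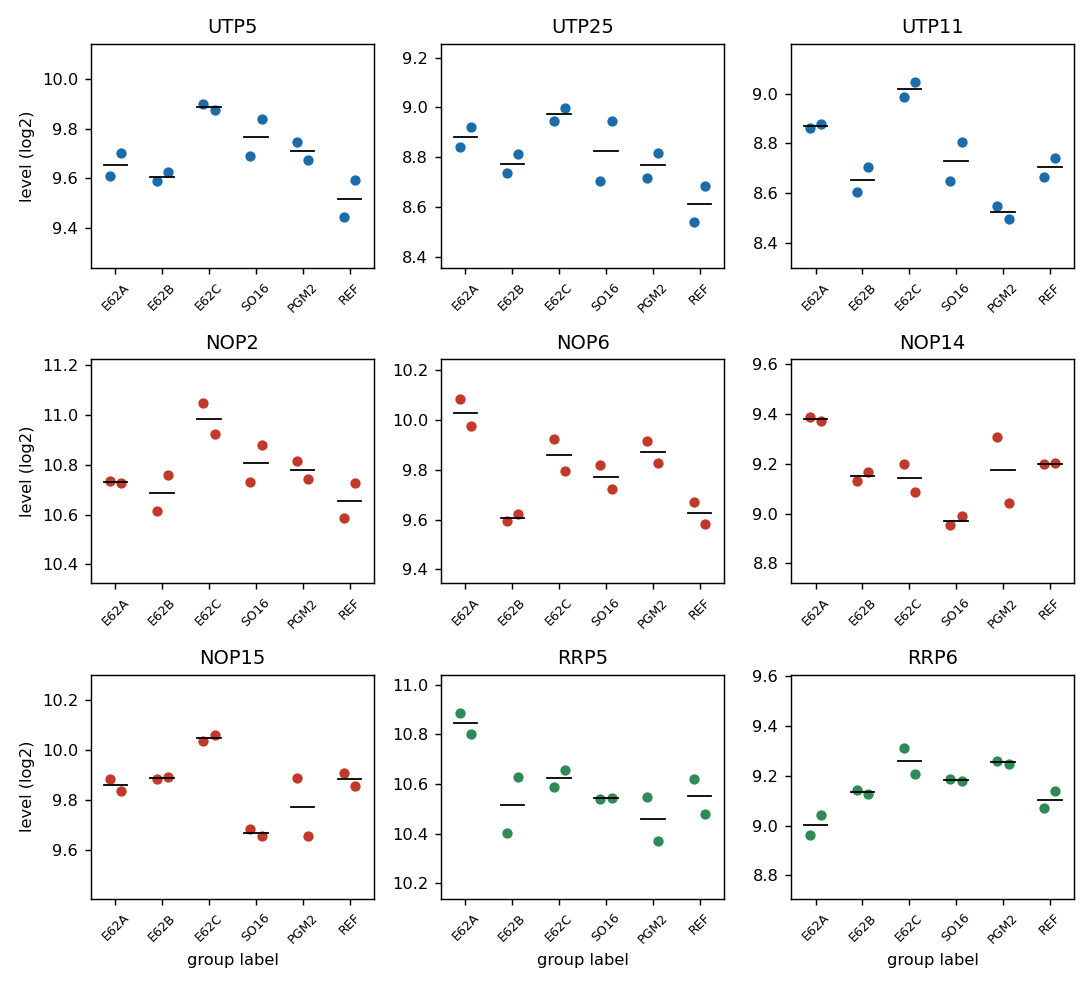
Level (log2, y axis; each panel spans 0.9 units) of 9 genes on each of the 12 arrays (points) by group label (x axis), with the group mean as a bar. UTP5, UTP25, UTP11 and NOP2 have their highest group mean on the E62C arrays and NOP6, NOP14 and RRP5 on the E62A arrays, where that of RRP6 is lowest.

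RRP5, an RNA-binding protein needed for both subunits, lay at 10.89 and 10.80 on the E62A arrays, 10.40 and 10.63 on the E62B arrays, 10.59 and 10.66 on the E62C arrays, 10.54 and 10.54 on the SO16 arrays and 10.55 and 10.37 on the PGM2 arrays, against 10.62 and 10.48 on the REF arrays. The E62A arrays were above all others. E62A was higher by 0.39 ± 0.09 than PGM2 (adjusted p = 0.0105) and by 0.30 ± 0.09 than SO16 (adjusted p = 0.0387), while its difference from REF, 0.29 ± 0.09, did not pass (adjusted p = 0.0591) and passed without E62C-2 and SO16-2. The call against PGM2 ended without E62A-1 (adjusted p = 0.0927) or PGM2-2 (0.0931), and that against SO16 without any 1 of the 4 arrays compared or without E62C-2 and SO16-2 (0.0642).

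The 4 core proteins of small nucleolar ribonucleoproteins were NOP1 (fibrillarin, the methyltransferase), its partners NOP56 and NOP58, and NOP10, which belongs to the particles that guide pseudouridine formation. None passed in any of the 11 comparisons. NOP1 lay at 12.22 and 12.24 on the E62C arrays, against 12.05 and 12.15 on the REF arrays, a difference of 0.13 with a 95% interval from -0.03 to 0.29. NOP58 differed there by 0.14, with an interval from -0.02 to 0.29, and NOP56 by 0.03, with an interval from -0.12 to 0.17. NOP10 had the widest interval of the 4, from -0.13 to 0.40, and its levels were 11.47 and 11.77 on the E62C arrays, against 11.62 and 11.35 on the REF arrays. Over the 5 groups the differences of these 4 genes from REF ran from -0.12 (NOP56, SO16) to 0.14 (NOP10, E62C).

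Of 14 large-subunit factors, NOP2 and NOP8 passed against REF. NOP2, which methylates large-subunit RNA, lay at 11.05 and 10.92 on the E62C arrays, against 10.59 and 10.73 on the REF arrays, and rose by 0.33 ± 0.08 (adjusted p = 0.0298). The call ended without E62C-1 (adjusted p = 0.116) or REF-1 (0.234). NOP8 lay at 8.64 and 8.69 on the E62C arrays, against 8.42 and 8.38 on the REF arrays, and rose by 0.26 ± 0.07 (adjusted p = 0.0403). Leaving out any 1 of the 4 arrays ended the call, and without E62C-2 and SO16-2 the adjusted p was 0.0788.

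NOP13, a nucleolar RNA-binding protein, had the largest difference from REF of all 53 genes on the E62C arrays and did not pass. It lay at 10.07 and 10.14 on the E62C arrays and 10.003 and 10.13 on the E62A arrays, against 9.63 and 9.73 on the REF arrays, with differences of 0.42 ± 0.13 (adjusted p = 0.0683) and 0.39 ± 0.13 (0.0815). Its 2 SO16 arrays were 0.49 apart, at 9.55 and 10.04, the widest such gap of the 53, and all its comparisons share 1 standard error. Without E62C-2 and SO16-2 both differences passed. NOP4, an RNA-binding protein, had the next widest gap, 9.92 and 10.38 on the SO16 arrays. It lay at 10.08 and 9.97 on the PGM2 arrays, against 10.37 and 10.19 on the REF arrays, a difference of -0.26 ± 0.13 (adjusted p = 0.256) that passed without those arrays.

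NOP15, an RNA-binding protein of the early large subunit, did not pass against REF in any group but differed between modified strains. It lay at 10.04 and 10.06 on the E62C arrays, 9.68 and 9.65 on the SO16 arrays and 9.89 and 9.65 on the PGM2 arrays, and REF had 9.91 and 9.86. E62C was higher by 0.38 ± 0.08 than SO16 (adjusted p = 0.0200) and by 0.28 ± 0.08 than PGM2 (adjusted p = 0.0482). The first call ended without E62C-1 (adjusted p = 0.0556), E62C-2 (0.0711) or SO16-1 (0.0578) and had an adjusted p of 0.0658 without E62C-2 and SO16-2 together, and the second ended without either E62C array or PGM2-2, and without E62C-2 and SO16-2 (0.0953). NOP16, which the F test called, lay at 9.45 on both E62B arrays, against 9.65 and 9.55 on the REF arrays, a difference of -0.15 (adjusted p = 0.9995). Its means were 9.72 on the E62A, 9.75 on the E62C, 9.67 on the SO16 and 9.74 on the PGM2 arrays. Its widest gap between group means, 0.30, was between E62C and E62B, which were not compared directly. NOP7, the yeast pescadillo, differed by 0.26 ± 0.10 on the E62C arrays (adjusted p = 0.133).

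The 7 exosome genes did not pass against REF, and their differences ran from -0.10 (RRP42, E62A) to 0.31 (RRP40, E62C). On the E62C arrays all 7 had a mean above REF (57.7% of all genes), 4 of them clear above (29.1%), with a median of 0.16. There 3 of the 7 had an unadjusted p under 0.05, against 24.6% of all genes, while 4.84% of all genes were called higher. On the E62A arrays 4 were above REF (50.8%) and 3 below, with a median of 0.06. RRP6, the nuclear exonuclease that joins the exosome, lay at 8.96 and 9.04 on the E62A arrays, 9.14 and 9.13 on the E62B arrays, 9.31 and 9.21 on the E62C arrays, 9.19 and 9.18 on the SO16 arrays and 9.26 and 9.25 on the PGM2 arrays, against 9.07 and 9.14 on the REF arrays. The E62A arrays were below all others. E62C was higher than E62A by 0.26 ± 0.06 (adjusted p = 0.0204), and E62A was lower than PGM2, at -0.25 ± 0.06 (adjusted p = 0.0164), the only fall among the 19 calls of the 53 genes in 11 comparisons. The first call ended without E62A-1 (adjusted p = 0.186), E62A-2 (0.0636) or E62C-1 (0.0858), and the second without E62A-1 (0.152), PGM2-1 (0.0836) or PGM2-2 (0.0659).

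RRP45, a ring subunit, lay at 10.21 and 10.25 on the E62C arrays, against 10.01 and 9.98 on the PGM2 arrays, and was higher by 0.24 ± 0.06 (adjusted p = 0.0427). Leaving out any 1 of these 4 arrays ended the call, and without E62C-2 and SO16-2 the adjusted p was 0.0789. RRP4, a cap subunit, lay at 9.35 and 9.37 on the E62C arrays, against 9.09 and 9.32 on the REF arrays, a difference of 0.16 ± 0.09 (adjusted p = 0.330).

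In the 6 comparisons between modified strains few of the 53 genes were called. Their differences use no REF array, while their standard errors come from the fit of all 12 arrays. E62C over E62A gave 1 gene higher, RRP6, and none lower, against 9.97% higher and 7.84% lower over all genes. E62A over SO16 gave 3 higher, NOP14, RRP5 and NOP6, and none lower, against 10.4% and 9.49%. NOP6 was higher by 0.26 ± 0.07 (adjusted p = 0.0318). That difference no longer passed without E62A-1 (adjusted p = 0.249), E62A-2 (0.0696) or SO16-2 (0.119), and without E62C-2 and SO16-2 together (0.0661). With each array centred on its median the calls for E62A over SO16 were 2 higher, NOP14 and RRP5, and 3 lower, RRP6, RRP42 and UTP22, so the share of rises depends on the scaling. E62A over PGM2 gave 2 higher and 1 lower, against 10.6% and 12.1%. E62C over SO16 gave 1 higher, against 1.52% higher and 1.91% lower. E62C over PGM2 gave 3 higher, against 3.87% and 4.97%. SO16 over PGM2 gave none by limma, with 3 at an unadjusted p under 0.05, against 1.17% of all genes higher and 2.22% lower. At that unadjusted p the share was 5.66% of the 53, against 17.2% of all genes. In all, 13 of the 53 genes were called in at least 1 of the 11 comparisons and 40 in none. The same count was not made over all genes, so whether 13 is few or many is not known.

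The precision limits how small a difference could have been called. The median standard error over the 53 genes was 0.08, and in simulated data for E62C against REF changes of 0.25 were recovered in 22.9% of cases and changes of 0.5 in 81.3%. The 95% intervals bound the sizes: against REF, all 53 intervals lay within 0.5 of 0 for E62B and SO16, as did 51 for E62A, 46 for E62C and 51 for PGM2. Over all genes the shares were 97.6% for E62B, 88.3% for SO16, 85.9% for E62A, 86.1% for E62C and 85.4% for PGM2. Every interval of the 53 genes lay within 1, a 2-fold change, in all 11 comparisons. Over all genes the share was nearly as high, from 96.1% (E62A over PGM2) to 99.5% (E62B over REF).

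**Figure D5:**
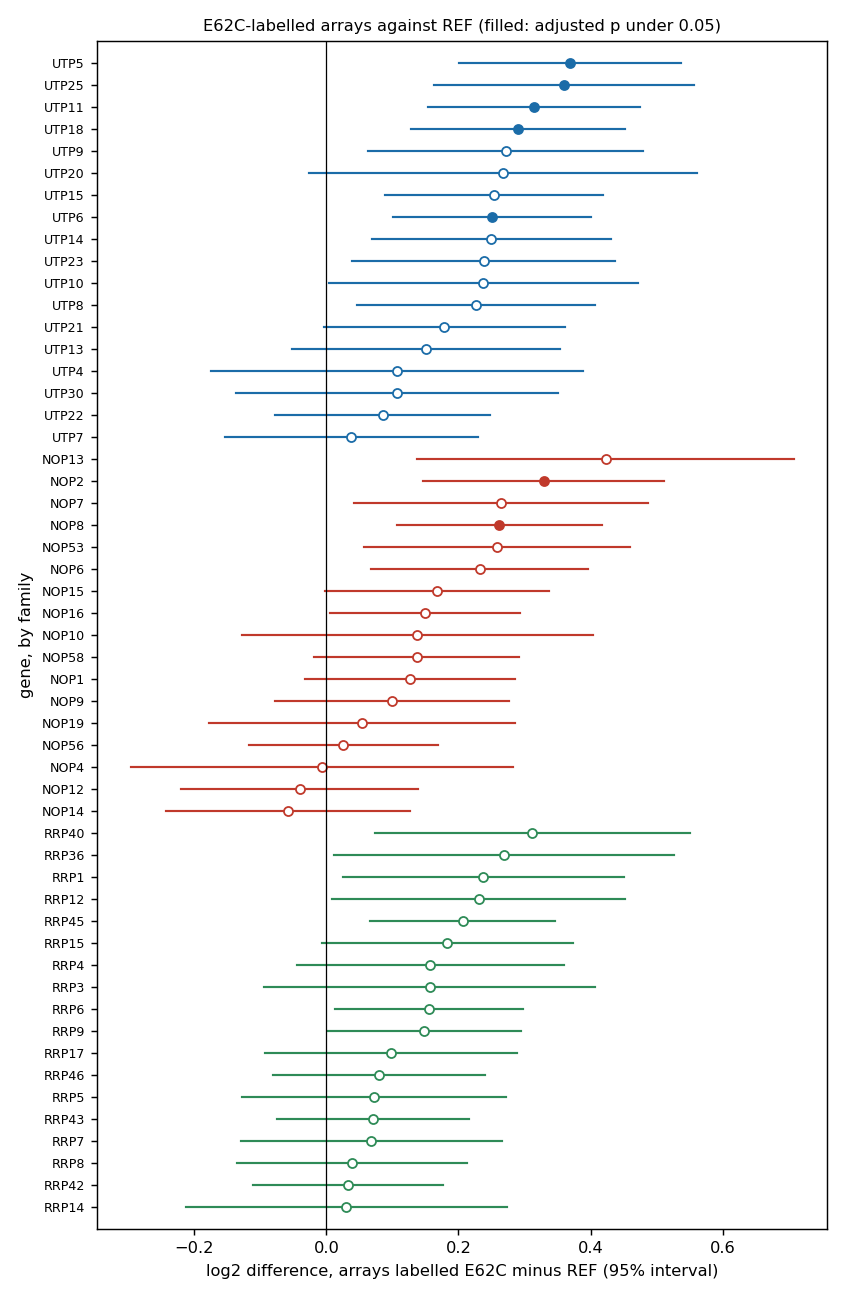
Log2 difference of the arrays labelled E62C minus REF with its 95% interval (x axis) for the 53 genes (rows, sorted within UTP in blue, NOP in red and RRP in green), filled where the adjusted p is under 0.05. Of 7 filled points 5 are UTP genes and 2 NOP genes, and 3 points, NOP4, NOP12 and NOP14, lie below 0.

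Other genes of the same regulon were followed through lists that name no UTP, NOP or RRP gene. The counts and medians of these lists are given only with all arrays in the fit. How they change without the arrays that stood apart, or without the first REF array, was not tested. Of 39 other small-subunit processome genes 5 rose on the E62C arrays and none fell, with a median of 0.23, among them MPP10 by 0.43 ± 0.09 (adjusted p = 0.0123) and DIP2, of UTP-B, by 0.36 ± 0.10 (0.0409). Of 47 other large-subunit assembly genes 10 rose there and none fell, with a median of 0.24, among them NSA2 by 0.48 ± 0.13 (adjusted p = 0.0423) and the GTPase gene NUG1 by 0.41 ± 0.10 (0.0258). On the E62A arrays 2 of the 39 rose, HCA4, an RNA helicase, by 0.27 ± 0.07 and IMP3 by 0.24 ± 0.06, and 1 of the 47, RRS1, by 0.29 ± 0.07. These are 5.13% and 2.13% of the lists, against 5.56% of all genes higher, while the E62C counts are 12.8% and 21.3%, against 4.84%. On the PGM2 arrays ESF1 rose by 0.28 ± 0.08 and SSF2, which has a near-identical paralogue, by 0.27 ± 0.08, which is 2.56% and 2.13% of the lists, against 7.03% of all genes higher. None of either list passed on the E62B or SO16 arrays by limma, where 0 and 7 of each list had an unadjusted p under 0.05, against 1.78% and 20.8% of all genes.

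None of 15 genes of RNA polymerase I and its factors passed limma against REF, with medians from 0.02 (PGM2) to 0.14 (E62C), and 6 had an unadjusted p under 0.05 on the E62C arrays, where 24.6% of all genes did. None of 4 other small nucleolar ribonucleoprotein genes passed against REF, with 1 at an unadjusted p under 0.05 on the E62A and on the E62C arrays. Of 7 other exosome genes DIS3, its catalytic subunit, rose on the SO16 arrays by 0.28 ± 0.07 (adjusted p = 0.0399). This 1 call is 14.3% of the 7, against 3.69% of all genes higher. On the E62C arrays none of the 7 passed, but 5 had an unadjusted p under 0.05, against 24.6% of all genes. Their median difference was 0.185 on the E62C arrays and 0.07 on the SO16 arrays. Of 6 regulators of the regulon, SCH9, a kinase that acts on it in response to nutrients, rose on the E62A arrays by 0.28 ± 0.07 (adjusted p = 0.0301) and on the PGM2 arrays by 0.25 ± 0.07 (0.0484). Each is 16.7% of the 6, against 5.56% and 7.03% of all genes higher. SFP1, an activator of the regulon, differed from REF by -0.13 ± 0.07 on the E62C arrays (adjusted p = 0.248). The repressor genes DOT6 and TOD6 differed there by -0.24 ± 0.12 (0.240) and 0.24 ± 0.10 (0.154).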

How the data were processed

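The table holds log2 values of 10928 probe sets on 12 arrays that the authors deposited; RMA and the affy package are named, per the submitters' processing notes. RMA makes arrays alike in distribution, so a shift of all transcripts would be removed. Arrays have no read depth, and their number limits the precision. Of the probe sets, 7244 carry a single symbol in the platform table, 1 carries several and 3683 carry none. Of these, 5498 matched budding yeast (5449 genes, highest-mean probe set), and the 95th percentile of the 1746 others set the background. Coordinates and sequences were not used here.

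Group means were estimated together from all 12 arrays with limma 3.58.1 in R 4.3.3 (lmFit, contrasts.fit, eBayes, 6 residual and 4.97 prior degrees of freedom), adjusted by Benjamini-Hochberg over all genes at 0.05. It was tested on 20 simulated data sets of 5449 genes with 200 changed. The members and lists were chosen with earlier results of these data known. Alternatives changed the scaling, the model, the threshold and the arrays used. Genes were named by a fixed rule: against REF, up to 6 rises and 6 falls among calls without overlap (3 largest differences where none), 4 calls in other comparisons, 15 genes for their roles, the 3 with the widest replicate gaps, and 2 calls of each list. UTP6, NOP16, RRP40 and RRP42 fall outside it and were chosen after their values were seen, as were SFP1, DOT6 and TOD6. The main fit did not pair arrays by replicate number.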

Additional observations from a re-analysis of the deposited data

Results flagged for a closer look

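Probe sets for ribosomal RNA lie outside the gene measurements compared here. Their mean over 16 probe sets was above that of both REF arrays, at 9.86 and 8.84, on 6 arrays of modified strains. It was 11.9 on E62C-2 and 11.5 on SO16-2, the arrays with weak hybridisation controls, and 10.3 on SO16-1, 10.1 on E62A-1, 10.1 on E62C-1 and 9.88 on PGM2-1. On the remaining arrays it was 9.25 (E62A-2), 8.93 and 8.91 (E62B) and 9.79 (PGM2-2). Its part in the levels of the 53 genes was not tested.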

How the results depend on the processing

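Of the 53 genes, the number called in each comparison depended on the processing, and no difference reversed its sign past the threshold. Read against all genes under the same setting, the share of the 53 that was called exceeded that of all genes for E62C over REF in 9 of 14 alternatives. For each of the 10 other comparisons it did so in none of the 14. Some of the 9 do not alter the values of the 53 genes and repeat the 7 calls of the main fit. They left out genes below background, left out shared probe sets, or averaged the probe sets of a gene. With each array centred on its median the counts were 4 for E62A over REF, 1 each for SO16 and PGM2 over REF, 4 for E62C over E62A, 5 for E62A over SO16, 5 for E62A over PGM2, 2 for E62C over SO16 and 9 over the 6 groups. Quantile normalization gave 5 for E62A over REF, 1 each for SO16 and PGM2 over REF, 3 for E62C over E62A, 5 for E62A over PGM2, 2 for E62C over SO16 and 8 over the 6 groups. Cyclic loess gave 3 for E62A over REF, 1 each for SO16 and PGM2 over REF, 4 for E62C over E62A, 5 for E62A over PGM2, 2 for E62C over SO16 and 8 over the 6 groups. Array weights gave 6 for E62A over REF, 3 for E62C over REF, 1 for PGM2 over REF, 1 for E62A over SO16, 10 for E62A over PGM2, 0 for E62C over SO16, 1 for E62C over PGM2 and 11 over the 6 groups. An intensity trend gave 1 for E62C over PGM2. A fit of only the groups compared gave 6 for E62A over REF, 1 for E62C over REF, 0 for E62C over E62A, 1 for E62A over SO16, 9 for E62A over PGM2, 0 for E62C over SO16 and 1 for E62C over PGM2. The pooled-variance test gave 0 for all 7 comparisons that had calls, and it called 0 to 21 of all 5449 genes in a comparison. A threshold of 0.01 gave 0 for E62C over REF, E62C over E62A and E62C over SO16. It gave 1 each for E62A over SO16, E62A over PGM2 and E62C over PGM2, and 2 over the 6 groups. The F test over the 6 groups called 1822 of all 5449 genes with centring and 1789 with quantile normalization. It called 1810 with cyclic loess, 2278 with array weights and 853 at 0.01. Without E62C-2 and SO16-2 the counts were 6 for E62A, 1 for SO16 and 3 for PGM2 over REF, 4 for E62C over E62A, 7 for E62A over SO16, 10 for E62A over PGM2, 3 for E62C over SO16 and 13 over the 6 groups, and the RRP mean for E62C lay 0.08 (0.0790) above REF.

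Leaving out 1 array at a time gave 0 to 4 calls for E62A, 0 to 0 for E62B, 0 to 10 for E62C, 0 to 3 for SO16 and 0 to 1 for PGM2 over REF. It gave 0 to 4 for E62C over E62A, 0 to 3 for E62A over SO16, 1 to 7 for E62A over PGM2, 0 to 4 for E62C over SO16, 1 to 5 for E62C over PGM2, 0 to 0 for SO16 over PGM2 and 1 to 12 over the 6 groups. The RRP mean for E62C then lay 0.0790 to 0.2039 above REF, and the NOP mean for PGM2 differed from REF by -0.0384 to 0.0959. The cause of these shifts was not tested.

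The gaps between the 2 arrays of a group, over all genes, correlated over 0.1 in 6 of 15 pairs of groups, from -0.35 to 0.54. These were the pairs among E62B, PGM2 and REF (0.47 to 0.53) and those among E62A, E62C and SO16 (0.18 to 0.54). Pairs between these sets of groups ran from -0.35 to 0.098. Arrays of the same number thus share a pattern within each set, whose source the labels do not give and which was not tested. A fit with the replicate block gave 3 calls for E62A, 11 for E62C and 1 for PGM2 over REF, 2 for E62C over E62A, 5 for E62A over SO16, 5 for E62A over PGM2, 2 for E62C over SO16 and 8 over the 6 groups.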
